A study of Mus musculus with 36 samples.

Results

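Kidneys of mice on a high-fat diet were compared between ZT16 and ZT12, that is, between 4 h after lights off and the moment of lights off (ZT, zeitgeber time, is the number of hours since lights on). The comparison uses 6 libraries, 3 at each time, of the 36 in the study, and every gene of the high-fat table. The study measured RNA of whole kidneys from male wild-type C57BL/6J mice under a daily cycle of 12 h light and 12 h dark, with food always available. From 6 weeks of age the mice received either a high-fat diet or normal chow, and the labels give 16 weeks for the harvest. Kidneys were taken at ZT0, ZT4, ZT8, ZT12, ZT16 and ZT20 from 3 mice per diet and time. The 3 high-fat mice of ZT12 are numbered 2, 4 and 5 and the 3 of ZT16 are numbered 1, 3 and 4, and the 6 chow mice of the same times serve as the comparison diet. The label tag that holds the diet also names ZT3, which is none of the sampled times, so times were read from the titles. The comparison asks which transcripts changed in the first hours of the active and feeding phase of a nocturnal animal.

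The mammalian clock is a feedback loop. ARNTL (BMAL1) pairs with CLOCK or NPAS2 and activates genes with an E-box, among them the Per and Cry genes, whose products then block the pair, and the nuclear receptors REV-ERB (Nr1d1, Nr1d2) and ROR (such as Rora) repress or activate Arntl in turn. Body temperature, food intake and circulating hormones also change at nightfall and reach the kidney with the clock's own signals. Chaperones of the endoplasmic reticulum fold secreted and membrane proteins and are induced by the unfolded protein response. Cytosolic chaperones of the heat shock family are induced by heat shock factor.

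Promoter stretches of 9 genes are shown. They were picked among members of the chaperone and clock lists whose windows held an element known for the control of such genes. Sequences and start sites are those of RefSeq on GRCm38.p6, each is written 5′ to 3′ on the gene's strand, and capitals mark the matches. For the endoplasmic reticulum stress element, CCAAT followed by any 9 bases and then CCACG was searched on both strands from 250 bases before to 50 bases after each start. The stretches of Hspa5, Creld2, Hsp90b1 and Pdia6 start 20 bases before the first match and end at the base before the start site.
Hspa5 (chr2:34772005-34772089, plus strand): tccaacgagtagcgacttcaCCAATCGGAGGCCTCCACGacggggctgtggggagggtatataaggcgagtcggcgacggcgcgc
Creld2 (chr15:88819500-88819645, plus strand): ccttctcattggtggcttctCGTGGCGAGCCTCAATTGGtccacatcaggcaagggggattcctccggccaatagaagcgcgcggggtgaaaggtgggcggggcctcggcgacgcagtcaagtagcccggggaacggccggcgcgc
Hsp90b1 (chr10:86705445-86705676, minus strand): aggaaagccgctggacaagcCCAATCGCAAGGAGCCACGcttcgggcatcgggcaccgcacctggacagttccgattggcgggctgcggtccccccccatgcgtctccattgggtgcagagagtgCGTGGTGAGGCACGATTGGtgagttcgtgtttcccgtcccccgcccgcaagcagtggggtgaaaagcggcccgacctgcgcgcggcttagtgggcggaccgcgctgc
Pdia6 (chr12:17266471-17266588, plus strand): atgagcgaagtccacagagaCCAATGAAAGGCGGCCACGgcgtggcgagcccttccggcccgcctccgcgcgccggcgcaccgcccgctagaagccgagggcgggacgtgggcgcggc
Hsp90b1 held 2 matches and the other genes 1 each. The chaperone list was drawn up by function, and several of its members are known targets of this element. The element was found in 8 of 19 windows of tested endoplasmic reticulum chaperones (42.1%), in 0.148% of the 10817 windows of tested genes and in 0.119% of all 32851 windows. Among the 16 tested genes with the element, 8 were higher at ZT16 and none was lower by the test described below. Of the 8 that are not on the chaperone list, only Acnat2 was higher, and their median log2 change was -0.15.
The stretch of Hspe1 is bounded in the same way, and Chordc1, whose matches cross the start site, is shown in 30 bases. The heat shock element was searched as GAANNTTCNNGAA, and overlapping matches run together in capitals in the chaperone cofactor Chordc1 and in the mitochondrial co-chaperonin Hspe1.
Chordc1 (chr9:18292261-18292290, plus strand): cgGAACGTTCGGGAAAATTCCTGAAgcagt
Hspe1 (chr1:55088039-55088147, plus strand): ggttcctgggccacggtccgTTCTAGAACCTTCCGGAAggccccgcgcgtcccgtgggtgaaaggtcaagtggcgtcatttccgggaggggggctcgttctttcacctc
It was found in 5 of 25 windows of tested heat shock chaperones (20.0%) and in 0.573% of the windows of tested genes. For the clock, the E-box CACGTG was found in 3 of 6 windows of tested repressors (50%), those of Per1, Cry1 and Ciart, and in 10.2% of the windows of tested genes. None of the 9 activator windows held an E-box, and 4 of 15 windows of tested output factors did (26.7%), those of Lonrf3, Tef and Tspan4. TAGGTCA, the element bound by REV-ERB and ROR, was found in 2.02% of the windows of tested genes. In the activator list it was found only in Arntl, in the output list only in Nfil3 and in no repressor. The D-box TTATGTAA was found in these 3 lists only in Per3, and in 0.61% of the windows of tested genes.
Ciart (chr3:95882229-95882364, minus strand): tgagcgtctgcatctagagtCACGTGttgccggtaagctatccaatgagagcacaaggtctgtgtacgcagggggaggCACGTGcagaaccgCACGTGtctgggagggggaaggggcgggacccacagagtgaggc
Cry1 (chr10:85185055-85185134, minus strand): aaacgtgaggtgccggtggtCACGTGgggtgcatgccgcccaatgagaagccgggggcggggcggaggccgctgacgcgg
Arntl (chr7:113207529-113207558, plus strand): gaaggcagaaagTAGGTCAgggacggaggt
Arntl is shown in 30 bases around its element, whose first base is 30 bases past the start, and Ciart holds 3 E-boxes. A match describes the letters of the window and is not a measured binding site.

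Values are FPKM, fragments scaled by transcript length and by the mapped fragments of the library, so levels are per length. Absolute depth is not known from such values. Relative depth, estimated from the steps between low values, ran from 0.659 to 1.15 at ZT12 and from 0.786 to 1.35 at ZT16, within the 0.353 to 1.35 of all 36 libraries. All markers of the proximal tubule, thick ascending limb, distal tubule, collecting duct, podocyte and endothelium were above 1 FPKM in all 6 libraries, as the label kidney requires. Adipocyte and erythrocyte markers varied among the markers of other tissues. Erythrocyte markers summed to 1.77 to 20.4 FPKM at ZT12 and 8.39 to 27.5 FPKM at ZT16, with no call among 2 tested members. The summed level of adipocyte markers was 89.7 to 369 FPKM at ZT12 and 234 to 406 FPKM at ZT16, all 13 tested members had a positive change with a median log2 change of 1.34, and none passed the test. Adiponectin (Adipoq), the defining fat hormone, was 24.3, 5.30 and 0.0852 FPKM in the ZT12 mice 2, 4 and 5 and 18, 24.6 and 25.8 FPKM in the ZT16 mice 1, 3 and 4. Adrenal markers stayed between 1.22 and 4.67 FPKM in sum, with 3 of 12 at 0 in all 6 libraries, and markers of skeletal muscle and urothelium stayed below 1.6 FPKM in sum. The sum for the distal convoluted tubule was 310–344 FPKM at ZT12 and 373–455 FPKM at ZT16, and that of the collecting duct was 274–305 and 216–244 FPKM, without overlap of the groups in either case. Of the 3 markers of the distal convoluted tubule only Calb1 was called. Pvalb was higher at ZT16 without overlap but was not called, and Slc12a3 overlapped between the times. The lower sum of the collecting duct came from Aqp2 and Aqp3, while its other 4 markers had positive changes and the median log2 change of the 6 was 0.16. In whole tissue, fewer cells of a type and less RNA per cell cannot be told apart.

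Between ZT12 and ZT16, 899 of 11076 tested genes (8.12%) differed in high-fat kidneys, 602 higher (5.44%) and 297 lower (2.68%) at ZT16. A gene was tested if its mean over the 18 high-fat libraries was at least 1 FPKM, and was called if limma's Benjamini-Hochberg adjusted p on log2(FPKM + 0.5) was under 0.05. All adjusted p values below are from that fit, and all log2 changes are ZT16 minus ZT12 on that scale. Most called changes were small. The median fold was 1.33 for genes called higher and 1.39 for genes called lower, 113 and 81 of them changed at least 1.5-fold, and 18 and 14 at least 2-fold. Of the genes called higher, 322 had their lowest of the 6 time means at ZT12 and 353 their highest at ZT16. Of the genes called lower, 167 had their highest mean at ZT12 and 142 their lowest at ZT16. Selection by a difference between these times favours such extremes, so the counts only describe the called genes. The 3 and 3 libraries did not overlap for 2311 tested genes (20.9%) with higher values at ZT16 and 1148 (10.4%) with lower ones.

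The number of calls depended on single libraries and on the scaling. It was 222 and 174 without ZT12 mouse 4 or 5, 227 and 317 without ZT16 mouse 1 or 3, and 1432 without ZT16 mouse 4. With each library rescaled by its median ratio, 369 genes were higher and 583 lower, and by its upper quartile 414 and 472, since the median tested gene had a log2 change of 0.07 as deposited. Calls also followed transcript GC content. The median GC content was 47.1% for genes called higher, 57.1% for genes called lower and 51.2% for all tested genes. The library trend over 10 points of GC content was 0.02, 0.12 and 0.15 in log2 at ZT12 and -0.24, -0.11 and 0.04 at ZT16. With each library's GC trend removed, 363 genes were higher and 129 lower, 377 of these 492 being among the 899. Leaving out the libraries with the lowest and the highest adipocyte sum, ZT12 mouse 5 and ZT16 mouse 3, left 62 calls, 61 of them among the 899. The part of GC content and of adipose RNA in the count was not tested further. All 88 called genes that the naming rule selects kept the direction of their change under every setting.

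**Figure D1:**
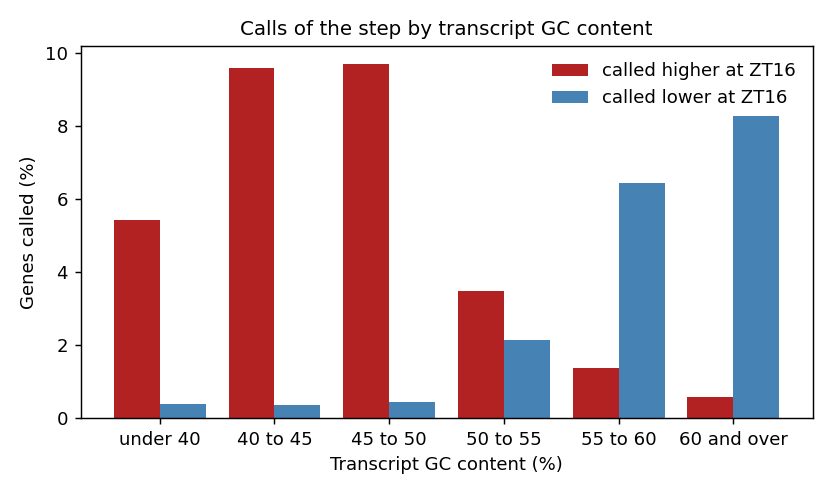
Share of tested genes called higher (red) or lower (blue) at ZT16 on the y axis, in percent, by transcript GC content on the x axis, in bins of 5 points with open ends. In the bin from 45 to 50% GC, 9.72% of genes were called higher and 0.45% lower, and from 60% upward 0.59% were called higher and 8.28% lower.

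Across the 23 gene lists, the called members of some lists all pointed one way. All 16 called endoplasmic reticulum chaperones, all 14 called heat shock chaperones and all 10 called proteasome genes were higher at ZT16. So were all 10 called members of the list of fatty acid oxidation genes and targets of the receptor PPARA. The clock lists held the largest single changes in both directions. Immediate early genes and insulin-responsive genes held no call.

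**Figure D2:**
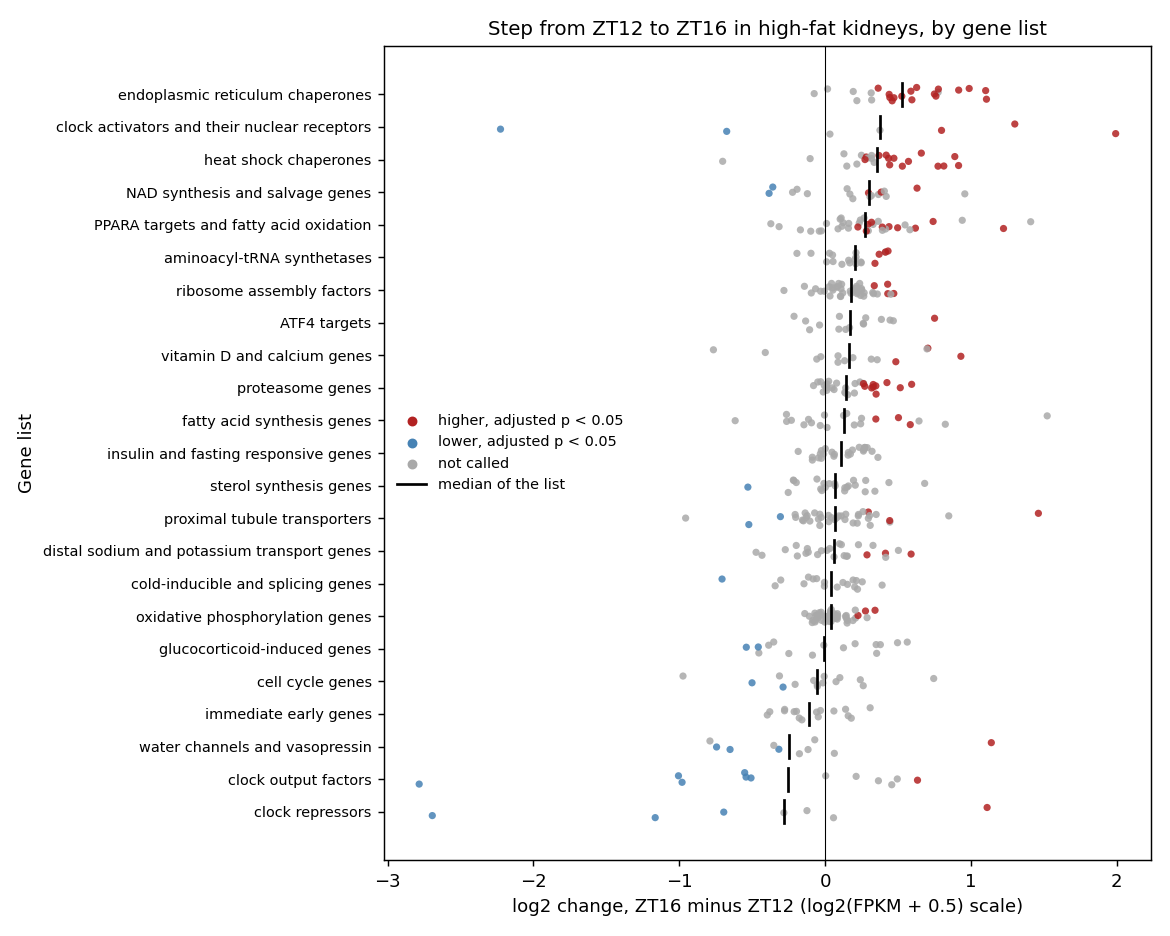
Log2 change from ZT12 to ZT16 in high-fat kidneys (x axis, log2(FPKM + 0.5) scale) for each tested member of 23 gene lists (y axis, ordered by median), with members called higher in red, called lower in blue and not called in grey, and the list median as a bar. Medians run from -0.28 for clock repressors to 0.53 for endoplasmic reticulum chaperones, and the median of all tested genes is 0.07.

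Among the clock activators and their nuclear receptors, 3 of 7 tested members were higher and 2 were lower at ZT16. Arntl, the central activator, was 0.582, 0.517 and 0.722 FPKM at ZT12 and 4.32, 2.54 and 5.27 FPKM at ZT16. Every ZT16 library was above every ZT12 library, and the log2 change was 1.99 ± 0.18 (SE, adjusted p = 1.7e-05). Npas2, the partner that can take the place of CLOCK, went from 0.278, 0.201 and 0.197 FPKM to 1.41, 0.659 and 2.07 FPKM (log2 change 1.30 ± 0.21 SE, adjusted p = 0.0031). Both genes were under 1 FPKM in every ZT12 library, and their means at ZT20 were 6.06 and 2.99 FPKM. Clock itself, at 1.64, 1.6 and 1.89 FPKM and then 2.93, 2.18 and 2.05 FPKM, did not pass the test (log2 change 0.38 ± 0.14 SE, adjusted p = 0.09).

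The nuclear receptors named here were lower or did not pass. Nr1d1 (REV-ERB alpha), the main repressor of Arntl, was 12.3, 14.8 and 13.3 FPKM at ZT12 and 2.03, 2.11 and 3.51 FPKM at ZT16, a fold of 4.68 lower (adjusted p = 2.4e-06). Its paralog Nr1d2 fell from 8.23, 7.60 and 6.39 FPKM to 5.73, 5.25 and 2.84 FPKM (log2 change -0.68 ± 0.18 SE, adjusted p = 0.035), with no overlap of the groups but only 2 of 6 calls kept when single libraries were left out. Rora changed by 0.03 ± 0.18 (SE) and did not pass.

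Of the 7 tested repressors, 3 were lower, 1 was higher and 3 did not pass. Ciart, a repressor of the ARNTL:CLOCK pair, went from 5.45, 8.18 and 6.83 FPKM to 0.479, 0.987 and 0.459 FPKM, a fold of 6.47 lower on the fitted scale (adjusted p = 2.3e-05). Per1 fell from 9.95, 12.2 and 9.16 FPKM to 5.71, 4.51 and 3.15 FPKM (log2 change -1.17 ± 0.20 SE, adjusted p = 0.005), and Per3 from 3.63, 2.99 and 2.70 FPKM to 1.92, 2.16 and 1.19 FPKM (log2 change -0.70 ± 0.17 SE, adjusted p = 0.026). The Per3 call was lost when any library but ZT16 mouse 3 was left out. Per2 overlapped between the times, with 5.91, 5.44 and 4.18 FPKM and then 4.86, 4.58 and 3.13 FPKM (log2 change -0.28 ± 0.18 SE, adjusted p = 0.3). In contrast, Cry1 rose from 1.76, 1.76 and 1.21 FPKM to 5.05, 4.15 and 2.89 FPKM (log2 change 1.11 ± 0.24 SE, adjusted p = 0.013). Its call was lost without ZT12 mouse 5 or ZT16 mouse 1. Cry2 and Bhlhe40 changed by -0.12 and 0.06 in log2 and did not pass.

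Of 12 tested clock output factors, 6 were lower, 1 was higher and 5 did not pass. Dbp is a PAR-domain transcription factor driven by E-boxes, although the windows searched gave no match for it. It was 26.2, 33.4 and 28.1 FPKM at ZT12 and 3.79, 5.67 and 2.5 FPKM at ZT16. This fold of 6.89 lower (log2 change -2.78 ± 0.23 SE, adjusted p = 7.1e-06) was the largest fall among named genes with a mean of at least 5 FPKM. Its relative Tef fell less, from 62.3, 59.4 and 56.2 FPKM to 45.1, 44.4 and 35.7 FPKM (log2 change -0.51, adjusted p = 0.037). Usp2, a ubiquitin protease, was 56.0, 58.2 and 56.7 FPKM and then 39.3, 43.2 and 34.8 FPKM (log2 change -0.54 ± 0.10 SE, adjusted p = 0.0059). Upp2, a uridine phosphorylase, was 1.97-fold lower at ZT16, and the secreted factor Tsku and the tetraspanin Tspan4 were 2.01-fold and 1.47-fold lower. The nuclear receptor Ppard was the member that rose (log2 change 0.63, adjusted p = 0.039). The list held no higher call when any library but ZT16 mouse 3 was left out. It held none under both rescalings or with the adipocyte covariate either. Without ZT12 mouse 4 the list held 2 lower calls in place of 6.

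**Figure D3:**
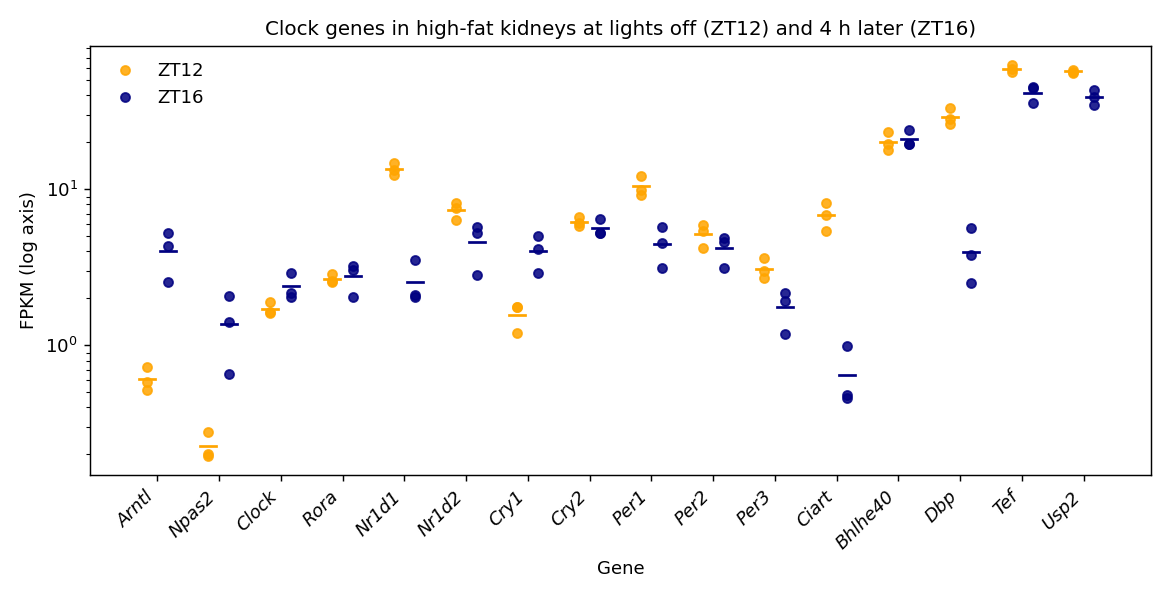
FPKM (y axis, log scale) of 16 clock and output genes (x axis) in each high-fat library at ZT12 (orange) and ZT16 (blue), with the mean of 3 as a bar. Arntl, Npas2 and Cry1 lie higher and Nr1d1, Per1, Ciart and Dbp lower at ZT16 without overlap, while Rora, Per2 and Bhlhe40 overlap.

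Endoplasmic reticulum chaperones and their helpers rose together. Of 23 tested members, 16 were higher and none lower at ZT16, against 5.44% of all tested genes called higher, and the median log2 change was 0.53 against 0.07. Hspa5 (BiP), the most abundant lumenal HSP70 chaperone, was 144, 123 and 102 FPKM at ZT12 and 289, 273 and 228 FPKM at ZT16 (log2 change 1.10 ± 0.13 SE, adjusted p = 0.00022). Hsp90b1 (GRP94) went from 119, 107 and 96.4 FPKM to 205, 183 and 165 FPKM (log2 change 0.78 ± 0.08 SE, adjusted p = 5.3e-05). Creld2, a disulfide isomerase-like protein, went from 23.1, 20.9 and 20.2 FPKM to 43.6, 45.4 and 39.8 FPKM (log2 change 0.99 ± 0.12 SE, adjusted p = 0.00018). In these genes the lowest ZT16 library exceeded the highest ZT12 library by more than the spread within either time. The stretches of these genes printed above were picked because they hold the stress element, so its presence there is no separate result. Windows were searched for 19 of the 23 tested members. Sdf2l1, Manf, Hyou1 and Pdia3, which were also called higher, are not among the 8 members with a match.

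The rest of the list covered folding, disulfide exchange and degradation. Sdf2l1, a cofactor of BiP, was 9.53, 7.03 and 6.31 FPKM and then 16.6, 16.5 and 17.1 FPKM (log2 change 1.11 ± 0.18 SE, adjusted p = 0.0024). The disulfide isomerases Pdia3, Pdia4 and Pdia6 rose by 0.63, 0.53 and 0.75 in log2, and the oxidase Ero1lb by 0.47. Hyou1 and Manf, a nucleotide exchange factor and a secreted stress protein, rose by 0.76 and 0.92. The lectin chaperones Calr and Canx rose by 0.36 and 0.46. Edem1 and Sel1l, which act in the disposal of misfolded glycoproteins, rose by 0.44 and 0.59. Xbp1, which encodes a transcription factor of the unfolded protein response, changed by 0.32 and did not pass (adjusted p = 0.14), and Herpud1, a part of the disposal machinery, changed by 0.02 (adjusted p = 0.93). With the GC trend removed 16 members were still called, and leaving out each library in turn gave 12 to 19. Without the libraries of lowest and highest adipocyte sum the count was 7.

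In contrast, the list of ATF4 targets, the amino acid branch of the stress response, held 1 call among 15 members. It was Psat1, an enzyme of serine synthesis, which was 6.67, 5.99 and 5.76 FPKM at ZT12 and 13.1, 9.56 and 9.63 FPKM at ZT16 (log2 change 0.75 ± 0.11 SE, adjusted p = 0.0016).

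**Figure D4:**
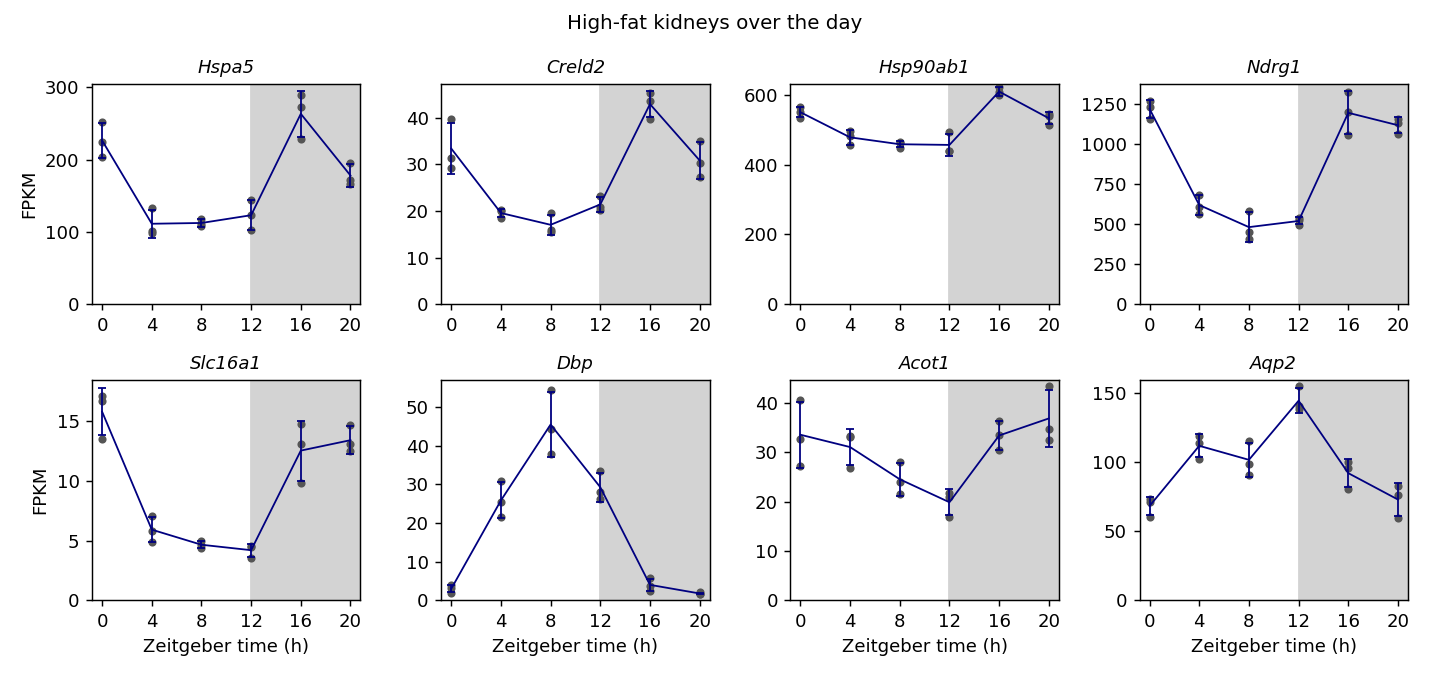
FPKM (y axis) of 8 genes in the high-fat kidneys over zeitgeber time (x axis, hours; the dark phase is shaded), with single libraries as points and the mean ± SD of 3 as a line with bars. Hspa5, Creld2 and Hsp90ab1 have their highest mean at ZT16, Acot1 has its lowest mean at ZT12 and Aqp2 its highest at ZT12.

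Cytosolic and mitochondrial chaperones followed the same direction. Of 24 tested heat shock chaperones, 14 were higher (58.3%, against 5.44% of all tested genes) and none lower, with a median log2 change of 0.35. Hsp90ab1, the constitutive cytosolic HSP90 and one of the most abundant members, was 492, 439 and 438 FPKM and then 622, 608 and 598 FPKM (log2 change 0.42 ± 0.06 SE, adjusted p = 0.0011). The inducible form Hsp90aa1 rose from 79.4, 61.3 and 52.5 FPKM to 164, 116 and 91.4 FPKM (log2 change 0.91, adjusted p = 0.007). Its ZT16 libraries spread more widely than those of Hsp90ab1, although the groups did not overlap. HSP90 co-chaperones rose as well. Ahsa1 went from 72.2, 65.9 and 61.1 FPKM to 90.2, 92.0 and 93.9 FPKM (log2 change 0.47 ± 0.07 SE, adjusted p = 0.0016). Stip1 went from 39.8, 40.2 and 39.4 FPKM to 52.7, 54.2 and 55.1 FPKM (log2 change 0.43 ± 0.07 SE, adjusted p = 0.0024). Chordc1 rose by 0.81 and Fkbp4 by 0.28.

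The HSP110 member Hsph1, a nucleotide exchange factor, rose by 0.89, the HSP40 members Dnaja1 and Dnaja4 by 0.53 and 0.57, and the mitochondrial chaperonin pair Hspd1 and Hspe1 by 0.44 and 0.27. The strongly heat-inducible Hspa1a was 4.63, 4.26 and 3.32 FPKM and then 3.63, 8.37 and 4.18 FPKM, and did not pass (adjusted p = 0.49). Only ZT16 mouse 3 was high for it, and the same library was highest for the near-identical Hspa1b, whose reads cannot be told apart from it. The constitutive Hspa8 changed by 0.22 and overlapped between the times (adjusted p = 0.3). The count of 14 was 12 with the GC trend removed and 4 over the 6 libraries alone. It was 7, 6 and 8 without ZT12 mouse 4, ZT12 mouse 5 or ZT16 mouse 1, and 2 without the libraries of lowest and highest adipocyte sum.

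Other parts of protein metabolism held smaller changes. Of 31 tested proteasome genes 10 were higher (32.3%, against 5.44% of all tested genes) and none lower, with a median log2 change of 0.14. The largest called change in this list was Psmd11, a lid subunit, at 22.7, 21.5 and 18.5 FPKM and then 34.9, 31.0 and 29.5 FPKM (log2 change 0.59 ± 0.09 SE, adjusted p = 0.0016). The regulatory subunits Psmd6, Psmd7 and Psmd2 rose by 0.35, 0.33 and 0.32. The proteasome count fell to 4 with the GC trend removed and to 3 and 2 without ZT12 mouse 4 or 5. Of 20 aminoacyl-tRNA synthetases 4 were higher, which is 20% (Nars 0.43, Tars 0.41, Farsb 0.37 and Iars 0.34 in log2). At an unadjusted p under 0.05 by limma, 11 were higher and 1 lower, beside 3146 of all 11076 tested genes in either direction. Of 40 ribosome assembly factors 4 were higher (10%, against 5.44% of all tested genes). Among them Ltv1, an export factor of the small subunit, was at 7.50, 7.18 and 6.64 FPKM and then 10.8, 9.79 and 9.54 FPKM (log2 change 0.47 ± 0.10 SE, adjusted p = 0.012). Both counts of 4 fell to 0 without ZT12 mouse 5.

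The list of fatty acid oxidation also holds other targets of the fat-sensing receptor PPARA. Of its 36 tested members 10 were higher (27.8%, against 5.44% of all tested genes) and none lower, with a median log2 change of 0.27. Acot1, a cytosolic acyl-CoA thioesterase, was 16.8, 21.0 and 21.8 FPKM at ZT12 and 36.3, 33.5 and 30.4 FPKM at ZT16 (log2 change 0.74 ± 0.15 SE, adjusted p = 0.0095). Its close paralogs may share reads with it. Pdk4, the kinase that shuts off pyruvate dehydrogenase, rose from 2.18, 2.10 and 1.71 FPKM to 6.38, 4.71 and 4.98 FPKM (log2 change 1.22, adjusted p = 0.022). Angptl4, a secreted inhibitor of lipoprotein lipase, rose from 25.5, 37.3 and 30.3 FPKM to 48.7, 49.1 and 44.4 FPKM (log2 change 0.62, adjusted p = 0.035). Groups did not overlap for any of these genes, and Pdk4 and Angptl4 were picked for mention after their values were seen.

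Enzymes of the oxidation spiral changed less. The mitochondrial reductase Decr1 rose by 0.39 ± 0.08 (SE, adjusted p = 0.012). Acadl, Hadh, Hadhb and the carnitine carrier Slc25a20 rose by 0.22 to 0.32. Cpt1a, the entry enzyme of mitochondrial oxidation, changed by 0.16 and did not pass (adjusted p = 0.37). Cyp4a14, a fatty acid omega-hydroxylase, was 4.68, 9.17 and 9.05 FPKM and then 55.4, 16.5 and 8.94 FPKM. Its ZT16 libraries spread over a wide range with mouse 1 highest, the times overlapped and it did not pass. The count of 10 was 6 with the GC trend removed and 8 with the adipocyte score as a covariate. It was 4 and 1 without ZT12 mouse 4 or 5, 1 and 3 without ZT16 mouse 1 or 3, and 0 without the libraries of lowest and highest adipocyte sum.

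Among 21 tested genes of fatty acid synthesis, Me1 (malic enzyme), Scd2 (a desaturase) and Acly (ATP citrate lyase) rose by 0.35, 0.58 and 0.50. No member was called lower, and the called members are 14.3% of the list. These 3 calls were lost without ZT12 mouse 4, without ZT12 mouse 5 or without ZT16 mouse 1. Among 24 sterol synthesis genes only Mvk, mevalonate kinase, was called, at 8.94, 9.12 and 9.09 FPKM and then 5.16, 7.42 and 5.96 FPKM (log2 change -0.53 ± 0.13 SE, adjusted p = 0.02), and the call was lost with the GC trend removed and without ZT12 mouse 4 or 5 or ZT16 mouse 1. In the list of 44 oxidative phosphorylation genes Atp5f1, Sdha and Uqcrc2 rose by 0.28, 0.34 and 0.23. They are 6.82% of the list, against 5.44% of all tested genes called higher, and the list median of 0.04 lay below that of all tested genes. These 3 calls were lost without ZT12 mouse 4 or 5 or ZT16 mouse 1 or 3.

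Of 10 tested genes of water transport and vasopressin signalling, 3 were lower and 1 higher, with a median log2 change of -0.25. Aqp2, the vasopressin-regulated channel of principal cells, was 138, 155 and 140 FPKM at ZT12 and 100, 95.2 and 80.2 FPKM at ZT16 (log2 change -0.65 ± 0.12 SE, adjusted p = 0.0068). Aqp3, the basolateral channel of the same cells, fell from 94.1, 90.5 and 81.4 FPKM to 70.4, 71.8 and 70.6 FPKM (log2 change -0.32 ± 0.09 SE, adjusted p = 0.037). The Aqp3 call was lost when any 1 of the 6 libraries was left out, and with the adipocyte covariate. The other 4 collecting duct markers had positive changes, as given above. The aquaglyceroporin Aqp7 of the proximal tubule fell from 10.8, 11.3 and 10.8 FPKM to 4.70, 6.99 and 7.77 FPKM (log2 change -0.74 ± 0.18 SE, adjusted p = 0.023). Avpr1a, a vasopressin receptor, rose from 1.26, 1.13 and 0.671 FPKM to 3.19, 2.31 and 2.96 FPKM (log2 change 1.14 ± 0.17 SE, adjusted p = 0.0015). The receptor of principal cells, Avpr2, changed by 0.06 and did not pass. With the GC trend removed Aqp2 and Aqp3 were no longer called and the lower count of the list was 1.

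Some genes of distal salt transport and of calcium handling were called, all of them higher. The potassium channel Kcnj1 (ROMK) went from 34.8, 34.7 and 27.5 FPKM to 58.5, 46.3 and 42.6 FPKM (log2 change 0.59 ± 0.15 SE, adjusted p = 0.027), and the basolateral channels Kcnj10 and Kcnj16 rose by 0.41 and 0.29. They were the 3 calls among 25 distal sodium and potassium genes (12%, against 5.44% of all tested genes called higher). All 3 were lost without ZT12 mouse 4, ZT12 mouse 5 or ZT16 mouse 1. The list median of 0.06 lay below the 0.07 of all tested genes. The sodium-chloride cotransporter Slc12a3 and the sodium channel subunit Scnn1a changed by 0.15 and -0.12 and did not pass. Among 14 vitamin D and calcium genes 3 were higher (21.4%), a count of 0 without ZT12 mouse 5 and of 1 without ZT16 mouse 1. The calcium buffer Calb1 rose from 68.2, 81.9 and 65.9 FPKM to 147, 109 and 100.4 FPKM (log2 change 0.70 ± 0.15 SE, adjusted p = 0.012). The FGF23 co-receptor Kl rose from 69.8, 64.8 and 55.2 FPKM to 96.8, 83.2 and 85.5 FPKM (log2 change 0.48 ± 0.09 SE, adjusted p = 0.0077). The calcium exchanger Slc8a1 rose by 0.93, with 8.34 FPKM in ZT16 mouse 1 against 4.31 and 3.90 FPKM in the other two.

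Of 39 tested proximal tubule transporters 3 were higher and 2 lower (12.8% called, against 8.12% of all tested genes). The list median of 0.07 was equal to that of all tested genes. The higher members were Abcg2, Slc4a4 and Slc16a1, whose values are given below. Slc13a2, the citrate transporter, fell from 43.4, 50.3 and 44.2 FPKM to 32.6, 31.0 and 31.7 FPKM (log2 change -0.52 ± 0.11 SE, adjusted p = 0.014). The urate exporter Abcg2 rose by 0.30 and the scaffold Slc9a3r1 (NHERF1) fell by 0.31. Leaving out each library in turn gave 1 to 6 higher and 0 to 3 lower calls in this list. Among 17 genes of NAD synthesis, Acmsd, Kmo and Nnt rose by 0.63, 0.30 and 0.38, and Naprt and Nadsyn1, which act on nicotinic acid, fell by 0.38 and 0.36. The 3 higher NAD calls were lost under both rescalings, and all 5 without ZT12 mouse 4 or 5 or ZT16 mouse 1.

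Of the tested members of the hormone and signal-response lists, 0% to 13.3% per list were called, against 8.12% of all tested genes. None of 16 immediate early genes was called by limma, and 1 was higher and 1 lower at an unadjusted p under 0.05. Zfp36, an mRNA-decay factor, was 19.2, 18.9 and 15.7 FPKM and then 15.5, 14.6 and 10.8 FPKM (log2 change -0.40 ± 0.15 SE, adjusted p = 0.096), and Ier5 changed by 0.31 (adjusted p = 0.15). None of 24 insulin and fasting responsive genes was called by limma, and 2 were higher and none lower at an unadjusted p under 0.05. That threshold was met by 3146 of all 11076 tested genes. Of 15 glucocorticoid-induced genes the metallothioneins Mt1 and Mt2 were lower, and both calls were lost without ZT12 mouse 4 or 5 or ZT16 mouse 1 and with the adipocyte covariate. Mt1 went from 159, 216 and 207 FPKM to 127, 153 and 140 FPKM (log2 change -0.46 ± 0.11 SE, adjusted p = 0.025). Fkbp5 and Sgk1, classical targets of the hormone receptor, changed by 0.50 and 0.35 and did not pass. Of 18 cold-inducible and splicing genes 1 was lower and none higher. The cold-inducible Cirbp and Rbm3 changed by -0.30 and 0.20 and did not pass. The cyclin Ccnd3 and the replication factor Mcm5 were the 2 lower calls among 15 cell cycle genes, with log2 changes of -0.29 and -0.50, and neither was called with the GC trend removed or without ZT12 mouse 4 or ZT16 mouse 1.

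The largest rises outside the clock lists, among called genes with a mean of at least 5 FPKM, were led by a transporter. Slc16a1 (MCT1), which carries lactate and ketone bodies, was 4.55, 3.55 and 4.46 FPKM at ZT12 and 14.7, 9.78 and 13.1 FPKM at ZT16 (log2 change 1.46 ± 0.15 SE, adjusted p = 3.7e-05). Nt5e (CD73), the ectoenzyme that forms adenosine from AMP, went from 13.6, 8.07 and 10.1 FPKM to 31.2, 29.1 and 25.4 FPKM (log2 change 1.41 ± 0.19 SE, adjusted p = 0.00069). Ndrg1, a stress-responsive gene and by far the most abundant of these, went from 525, 494 and 537 FPKM to 1324, 1054 and 1201 FPKM (log2 change 1.20 ± 0.11 SE, adjusted p = 2e-05). Each of these genes at least doubled in mean with no overlap, and each was called under every alternative. Clpx, a mitochondrial protease subunit, rose from 24.5, 19.2 and 20.5 FPKM to 50.9, 35.6 and 40.4 FPKM (log2 change 0.96 ± 0.12 SE, adjusted p = 0.00032). Slc25a30, a mitochondrial carrier, rose by 1.40 ± 0.39 (SE, adjusted p = 0.039), but the ZT16 libraries were 18.6, 7.08 and 7.2 FPKM, and the call was lost without ZT12 mouse 4 or 5 or ZT16 mouse 1 or 3. Arrdc3, an arrestin-domain protein, rose by 1.02 ± 0.27 (SE, adjusted p = 0.031) and lost its call when any 1 of the 6 libraries was left out. Tstd2, Aldh1a7 and the acyltransferase Acnat2 rose by 1.02, 1.02 and 0.96. The Aldh1a7 call was lost without ZT12 mouse 5 or ZT16 mouse 1.

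Among called genes with a mean of at least 5 FPKM, the largest falls after Dbp and Nr1d1 were those of Malat1 and Snhg11. Malat1, an abundant nuclear RNA that encodes no protein, was 131, 118 and 125 FPKM and then 72.0, 49.3 and 44.5 FPKM (log2 change -1.20 ± 0.21 SE, adjusted p = 0.0052). Snhg11, a small nucleolar RNA host gene, was 8.30, 7.75 and 8.74 FPKM and then 4.71, 2.76 and 3.24 FPKM (log2 change -1.13 ± 0.25 SE, adjusted p = 0.015). For both genes all ZT12 libraries lay within a narrow range and above all ZT16 libraries. The chemokine Ccl5 and the interferon-induced Ifitm1 fell by 0.92 and 0.88, and kept 1 and 2 of 6 calls when single libraries were left out. Slc5a6, the carrier of biotin and pantothenate, fell from 6.93, 7.59 and 6.30 FPKM to 3.73, 3.63 and 4.16 FPKM (log2 change -0.78 ± 0.14 SE, adjusted p = 0.0064). Atxn7l2, Ell3, Ggnbp1 and the pseudogene Olfr856-ps1 fell by 1.00, 0.83, 0.79 and 0.81. Ggnbp1 kept 1 of 6 calls when single libraries were left out and lost its call with the GC trend removed. The call of Olfr856-ps1 was lost without ZT12 mouse 4 or 5, and that of Snhg11 without ZT12 mouse 5 or ZT16 mouse 3.

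The same step under normal chow gave 39 calls of 11144 tested genes (0.35%), 26 higher and 13 lower. The diets share no library in this comparison. No gene passed limma's test of the difference between the steps (0%), and 260 genes (2.33%) had an unadjusted p under 0.05. The count of differing genes was also 0 under every alternative run for it, so the larger number of calls under the high-fat diet does not show a different step. The median residual SD within groups was 0.149 in log2 for high-fat and 0.207 for chow libraries. Of 898 high-fat calls that were tested in chow, 871 (97.0%) had the same sign there, against 58.5% of all tested genes with a positive and 40.9% with a negative chow change. Genes called higher had a median log2 change of 0.41 in high-fat and 0.29 in chow kidneys, and genes called lower had -0.48 and -0.29. Of the 39 chow calls 33 (84.6%) were high-fat calls, which is 3.67% of the latter.

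For the clock genes of largest change no difference between diets passed the test. The log2 change was 1.99 in high-fat and 1.95 in chow for Arntl, -2.69 and -2.65 for Ciart, -2.78 and -2.45 for Dbp, and -2.23 and -2.71 for Nr1d1. Endoplasmic reticulum chaperones had medians of 0.53 and 0.61, and all 23 members had the same sign in both diets. Several of them had smaller values under the high-fat diet. Sdf2l1 changed by 1.11 against 1.98 (difference -0.87, unadjusted p = 0.0074 by limma, not passing after adjustment), Hspa5 by 1.10 against 1.56 and Creld2 by 0.99 against 1.46. The lists of fatty acid oxidation with PPARA targets and of water transport had medians of 0.27 and -0.25 in high-fat kidneys. Their medians in chow kidneys were -0.02 and 0.11. Among their members, Acot1 changed by 0.74 against 0.18, Pdk4 by 1.22 against 0.23 and Aqp2 by -0.65 against -0.14. An unadjusted p of the difference under 0.05 by limma was found for 7 of 23 endoplasmic reticulum chaperones. It was also found for 7 of 36 oxidation genes and PPARA targets, and none passed after adjustment. Adipocyte markers moved the other way in chow, from 819–1899 FPKM at ZT12 to 433–894 FPKM at ZT16, and adrenal markers reached 81.8 FPKM in chow ZT16 mouse 4 against at most 3.8 FPKM in the other 5 chow libraries. Their part in these differences was not tested.

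The 5 genes of lowest p for the difference between diets, none of which passed, were 1500012F01Rik, Zfp775, 9130401M01Rik, Pddc1 and Rtkn. Rtkn (rhotekin) was 20.9, 24.7 and 22.2 FPKM and then 13, 15 and 12.9 FPKM in high-fat kidneys (log2 change -0.71 ± 0.10 SE, adjusted p = 0.00089), and its chow change was 0.13. The transcript 1500012F01Rik changed by 0.03 in high-fat and by -0.80 in chow kidneys.

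**Figure D5:**
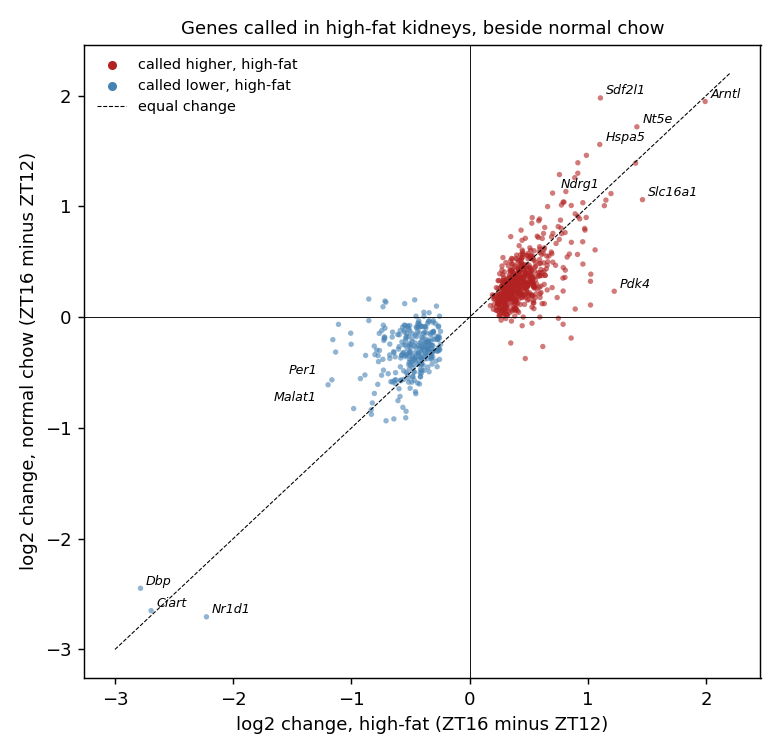
Log2 change from ZT12 to ZT16 under the high-fat diet (x axis) and under normal chow (y axis) for 863 genes called under the high-fat diet with a mean of at least 2 FPKM, called higher in red and called lower in blue. 2 microRNA genes are left out, the dashed line marks equal change, and most points lie in the quadrants of equal sign.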

How the data were processed

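Per the labels' protocols, TRIzol was used for extraction and the TruSeq RNA v2 kit for library construction. The authors deposited FPKM values in 1 table per diet, made with CASAVA 1.8.2, Bowtie and Cuffnorm on mm10, per the submitters' processing notes. Depth is unknown. Relative depth came from 3328 low genes, in which 54.7% of low values fell within 0.05 of whole steps, so no reads were recovered. Of 24883 rows, 817 with repeated symbols were left out. Genes with a mean of at least 1 FPKM over the 18 high-fat libraries were tested with limma 3.58.1 in R 4.3.3, with a mean-variance trend, on log2(FPKM + 0.5), which understates changes of low genes. The fit had 6 group means, so the other times share the spread. The difference between diets used 12 group means of 36 libraries. The step alone under chow was fitted on the 18 chow libraries. The fit was tested on simulated data with independent noise in each value. That simulation held no trend shared within a library, such as the one over GC content. P-values measure the spread between these mice.

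The members and gene lists were chosen with earlier results of these data known. Named genes are all tested clock members, the 12 largest changes per direction with a mean of at least 5 FPKM without unnamed models or markers of other tissues, up to 4 members per list by p, and 5 genes by p for the difference between diets. A few genes that it takes are not reported here but remain in all counts. Other list members named in the text were chosen after their values were seen. Replicate numbers did not pair the mice: same-numbered libraries deviated with a median correlation of 0.029, against -0.005 for others. Alternatives were other pseudocounts, filters, rescalings, libraries, a replicate block, GC and adipocyte corrections, and leaving out each library.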

Additional observations from a re-analysis of the deposited data

How the results depend on the processing

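The 899 calls of the step were 871 and 914 with pseudocounts of 0.1 and 1, 572 with no filter on low values and 955 with a mean of at least 5 FPKM. They were 173 (81 higher and 92 lower) over the 6 libraries alone, 135 (82 and 53) over all 36 libraries and 492 (363 and 129) with the GC trend removed. With a replicate block, which the high-fat groups share only through number 4, 311 genes were called (176 higher and 135 lower), 238 of them among the 899, and the block called 0 genes in the difference between diets. With adipocyte markers as a covariate 392 were called, and 62 without the libraries of lowest and highest adipocyte level, an alternative chosen after the data were seen. Leaving out each library in turn gave 174 to 1432 calls, and 0 for the difference between diets. The causes were not tested, apart from the fewer libraries of some fits. Of 88 named genes that were called, 35 stayed called without each single library and 27 under all alternatives but the one chosen later, and none changed direction. Low FPKM values carry the largest counting error, and their depth is unknown.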

Other observations

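Genes of the secretory pathway outside the fixed lists were looked up after the calls were seen, so their values are a description. The translocon partners Serp1 and Ssr3 had log2 changes of 0.59 and 0.55 (limma, adjusted p = 0.019 and 0.016), and the signal peptidase subunit Spcs2 of 0.40 (adjusted p = 0.0036). Stt3a and Stt3b, the catalytic subunits of oligosaccharyltransferase, rose by 0.41 and 0.44. The vesicle transport genes Tmed2, Sec22b, Arcn1 and Uso1 rose by 0.41, 0.41, 0.48 and 0.53. Under normal chow the same 9 genes had log2 changes of 0.63, 0.45, 0.45, 0.49, 0.46, 0.41, 0.44, 0.47 and 0.55, in the order given.

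Some genes of lipid and redox metabolism outside the lists were also called. Acsl1, an acyl-CoA synthetase, was 17.9, 18 and 16.6 FPKM at ZT12 and 46.7, 29.0 and 26.3 FPKM at ZT16 (log2 change 0.89, adjusted p = 0.0034), beside a chow change of 0.07. The peroxisomal transporter Abcd3 rose by 0.47 and the peroxisome factor Pex11a by 0.92, beside 0.20 and 0.91 in chow. Hmox1 (heme oxygenase) and Txnrd1 (thioredoxin reductase) rose by 0.52 each. Csf1r, a macrophage receptor, fell by 0.59, while the summed macrophage markers were 102 to 183 FPKM at ZT12 and 105 to 162 FPKM at ZT16 and overlapped.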
